A study of Mus musculus with 26 samples.

Results

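Assays B01, C94 and C24 of a mouse microRNA panel, named by plate position, were followed across 26 samples of 7 cell groups. These 3 of 315 positions were chosen by their threshold cycle (Ct), which was on average lower, and so their RNA higher, in primary hepatocytes than in pancreatic islets. The difference between hepatocytes and islets is therefore a description, and no test of it is given. The other comparisons of the study, among pluripotent cells and fibroblasts, did not enter the choice and were tested.

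MicroRNAs are short RNAs that guide Argonaute proteins to partly complementary messenger RNAs and lower their translation or stability. Many are made in most cell types, while some are made almost only in 1 lineage, and liver cells are known for a few that are far more abundant there than elsewhere. In stem-loop RT-qPCR, a hairpin primer that fits the end of the mature miRNA primes cDNA synthesis, and a fluorescent probe then follows its amplification. Each cycle of Ct stands for about a doubling, so 1 cycle is 1 unit on the log2 scale and a low Ct means much RNA. The files give plate positions and no miRNA names, so the 3 assays are called by position and no sequence or function is given for them.

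Tail-tip fibroblasts (5 samples) and 5 clones of induced pluripotent stem cells (iPSC) derived from such fibroblasts were profiled beside D3 and R1, established lines of embryonic stem cells (ESC), with 3 samples of each line. iPSC and ESC were kept on inactivated feeder fibroblasts from mouse embryos with leukemia inhibitory factor. Clones 2 and 3 were also taken off feeders and given activin A, a TGF-beta family ligand, at 100 ng/ml for 5 days (the sample labels write ng/ul), with 2 samples per clone. Hepatocytes and islets, 3 samples each, came from adult C57BL/6 mice. Only the clones are named as separate; whether other samples of a group are separate cultures or animals is not labelled, so the p-values cover a spread that may be technical. In such bulk samples, fewer cells of a type and less RNA per cell cannot be told apart.

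The number of assays with a Ct below 35 ran from 187 to 276 per sample, with the fewest in fibroblast replicate 5 and between 210 and 219 in the hepatocyte samples. Positions that stood out for other cell types in earlier work on these data served as a check of labels, which is not independent of the data. The islet position A12 had a Ct of 16.0 to 18.3 in islets and 32.6 to 33.3 in hepatocytes. A second islet position, B64, had 15.5 to 28.02 in islets and was below 35 in 1 of 3 hepatocyte samples, but 1 treated iPSC sample gave 3.26 there. The pluripotent positions B74 and B77 were each below 35 in 1 of 3 hepatocyte samples, at Ct 34.4 and 32.8. The fibroblast positions B13 and B14 had a Ct of 21.0 to 22.4 in hepatocytes, close to the 20.4 to 22.2 in islets, so they did not mark fibroblasts against these tissues.

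B01 was present in hepatocytes and at or beyond the limit of detection in nearly every other sample. Its Ct in the 3 hepatocyte samples was 21.1, 22.04 and 21.7. In islets it was 39.8 and 35.7, with no Ct in replicate 3. The 5 iPSC clones gave 39.1 and 37.2 and no Ct in the other 3, and none of the 4 activin-treated and 6 ESC samples reached a Ct. A single fibroblast sample, replicate 3, gave 33.6, and the other 4 gave none. Hepatocytes were thus apart from all 23 other samples by at least 11.6 cycles, the gap between the weakest hepatocyte sample and that fibroblast sample. Fibroblast replicate 3 also had the lowest mean Ct of its group in the set that holds B01, 23.2 against 25.3 to 29.9 cycles, and the part of this in its B01 value was not tested.

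**Figure D1:**
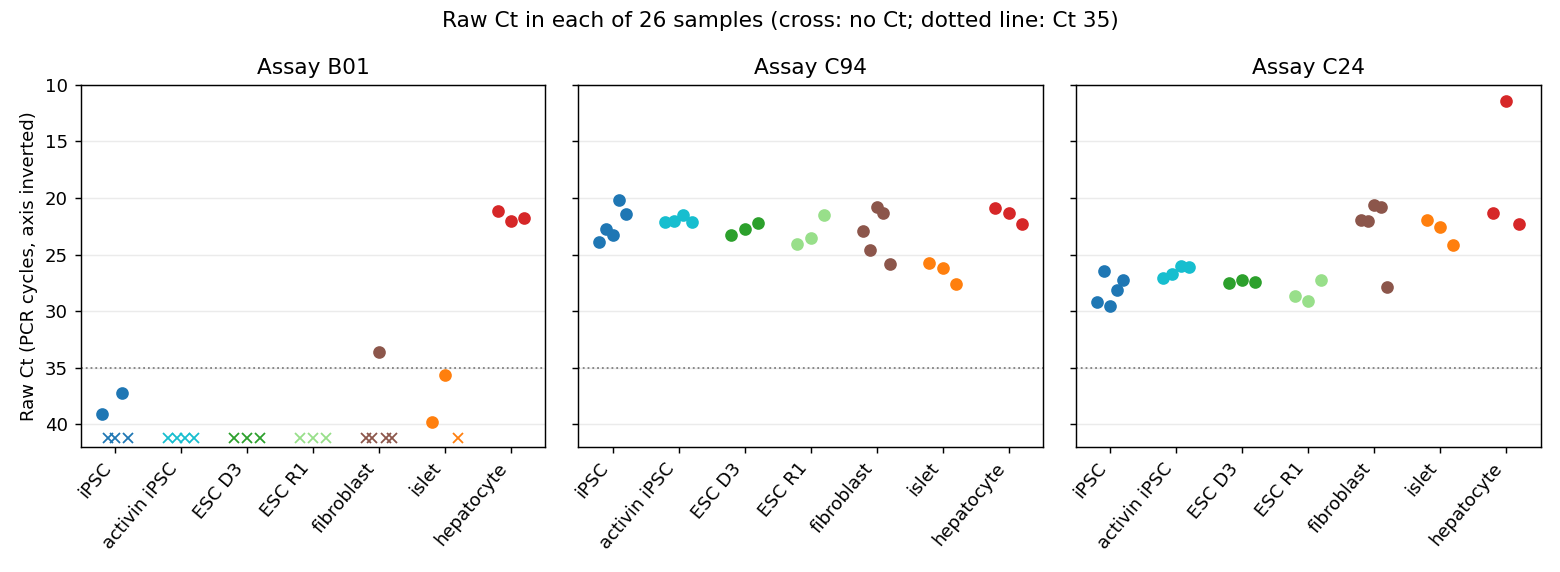
Raw Ct (PCR cycles, inverted axis, so that more RNA is higher) of B01, C94 and C24 in each of 26 samples, by group; crosses mark samples with no Ct and the dotted line is Ct 35. B01 is near Ct 21 to 22 in hepatocytes only, C94 is at Ct 20.2 to 27.6 everywhere, and C24 is earlier in islets, hepatocytes and 4 of 5 fibroblast samples than in pluripotent cells, with 1 hepatocyte sample at 11.5 and fibroblast replicate 5 at 27.9. How many other assays separate the samples as C24 does was not counted.

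The panel around B01 is given as a description, since the hepatocyte and islet values chose this assay and the count of 1 other sample is its own. Of 182 assays with a Ct below 35 in all 3 hepatocyte samples, B01 was the only 1 that was below 35 in at most 1 of the 23 others. The next in this order, A18, was below 35 in 5 of them, and 122 of the 182 were below 35 in all 26 samples. Within hepatocytes B01 had the 20th, 14th and 13th lowest Ct of the 170, 172 and 169 assays with a Ct on plates A and B. Such a rank needs no reference gene, but it also reflects how well each assay amplifies.

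Levels were then set against the mean Ct of assays detected in all 26 samples (87 on plates A and B together, 26 on plate C), as mean Ct minus assay Ct, with values above 35 or without a Ct set to 35. On this log2 scale B01 stood at 4.79 ± 0.38 (SD, n = 3) in hepatocytes. In the other groups, where 22 of 23 samples sat at the limit, the means ran from -9.41 in islets to -7.03 in ESC R1. Those means follow the reference of each sample rather than B01, and their order says nothing about B01. The hepatocyte level exceeded the group means by 11.82 (ESC R1) to 14.20 (islets) on this scale. Relative to the small nuclear RNA RNU6, which the authors used, the difference from islets was 10.98, and it became 7.98 with the limit at Ct 32 and 14.47 with the limit at Ct 40. The size is thus set by the limit, while the presence in 3 of 3 hepatocyte samples is not.

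C94 behaved differently: it was detected in all 26 samples and was lowest in islets. Its raw Ct in hepatocytes was 20.9, 21.3 and 22.3, and in islets 25.7, 26.1 and 27.6, without overlap. The iPSC clones gave 23.9, 22.7, 23.2, 20.2 and 21.4. Fibroblasts gave 22.9, 24.6, 20.8, 21.3 and 25.9. The D3 samples gave 23.3, 22.8 and 22.2 and the R1 samples 24.1, 23.5 and 21.5, while the 4 treated samples gave 22.1, 22.03, 21.5 and 22.1. On raw Ct hepatocytes therefore overlapped every group except islets, and the islets overlapped only with fibroblast replicate 5.

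Relative to the mean Ct of plate C, the hepatocytes moved apart. Their C94 levels of 7.71, 6.45 and 6.89 were above the highest other sample, iPSC replicate 4 at 5.03. How many of all assays put hepatocytes above every other sample on this scale was not counted. Over islets alone 16.7% of 276 assays did so, and the separation is not read as particular to C94. Group means then fell in the order hepatocytes at 7.02, iPSC 4.26, ESC D3 3.86, ESC R1 3.74, treated iPSC 3.19, fibroblasts 2.52 and islets 0.11. Only the first step and the last, of 2.75 and 2.41, separated neighbours without overlap of their samples; the 4 steps between were of 0.12 to 0.67 with overlapping ranges. The reference itself differed between these groups, with a plate C mean Ct of 27.8 to 29.2 in hepatocytes and 23.6 to 29.3 in the 23 other samples, and the part of this in the separation was not tested. The difference of hepatocytes over iPSC was 2.75 on the mean Ct scale and 0.80 on raw Ct. Over islets it was 6.90 relative to the mean Ct, 6.10 relative to RNU6 and 4.98 on raw Ct. The RNU6 value was 4.48 without hepatocyte replicate 1 and 7.24 without replicate 3.

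**Figure D2:**
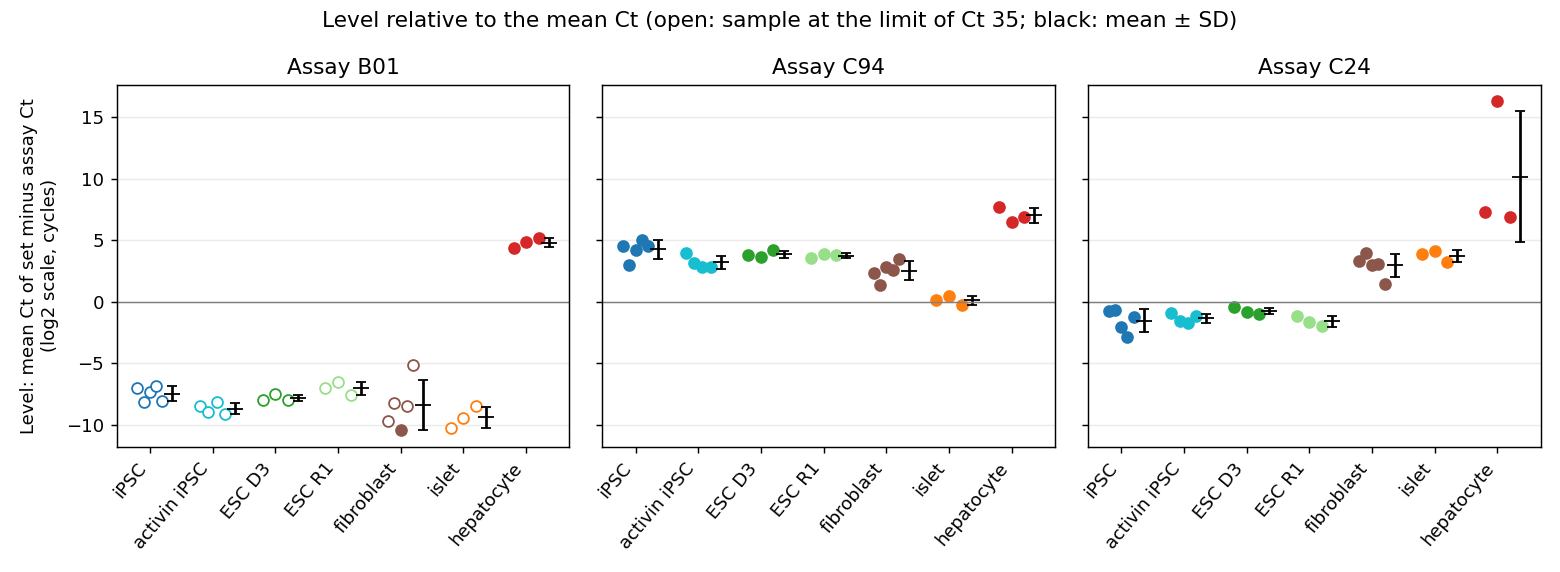
Level of B01, C94 and C24 (mean Ct of the assay's set minus assay Ct, log2 scale) in each sample, with open circles for samples at the limit of Ct 35 and black bars for the group mean ± SD. Hepatocytes lie above every other sample for each assay on this scale, C94 is lowest in islets, and C24 is below 0 in all 15 pluripotent and treated samples. How many other assays set hepatocytes apart in this way was not counted.

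C24 had yet another pattern, high in the 3 differentiated cell types and low in pluripotent cells. Its Ct in hepatocytes was 21.3, 11.5 and 22.3. Islets gave 21.98, 22.5 and 24.1, and fibroblasts 21.9, 22.02, 20.7, 20.8 and 27.9. The 11 iPSC and ESC samples ran from 26.5 to 29.6 with a median of 27.5, and the treated samples gave 27.1, 26.7, 26.02 and 26.1. The hepatocyte samples other than replicate 2 lay within the range of fibroblasts, and 1 of the 2 within that of islets. Every hepatocyte and islet sample lay below every pluripotent sample in Ct, and so did 4 of 5 fibroblast samples. How many of all assays separate the samples in this way was not counted, and the hepatocyte and islet values belong to the choice. The separation is therefore not read as particular to C24.

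The place of C24 as a hepatocyte assay rested in good part on replicate 2. With it, hepatocytes exceeded islets by 4.52 on raw Ct, 5.64 with RNU6 and 6.44 with the mean Ct as reference. Without it these became 1.07, 2.77 and 3.38, while without replicate 3 the RNU6 value was 8.34. Hepatocyte and islet samples overlapped on raw Ct and on the RNU6 scale but not on the mean Ct scale, where hepatocyte levels were 7.29, 16.30 and 6.92 against 3.89, 4.08 and 3.20. Among 276 assays ranked by this difference relative to RNU6, C24 was the 5th with all samples and the 19th without replicate 2. The same sample gave 2 other values of this size on plate C, a Ct of 12.5 at C07 and 12.1 at C12, where the other hepatocyte samples had no Ct. In all, 26 of 7240 Ct values were below 15, 11 of them in hepatocyte replicate 1, 3 in replicate 2 and 2 in replicate 3. C24 was itself among the 26 assays of the plate C mean, as was C94, and leaving both out gave 7.46 for C94 over islets and raised the difference of C24 as well.

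**Figure D3:**
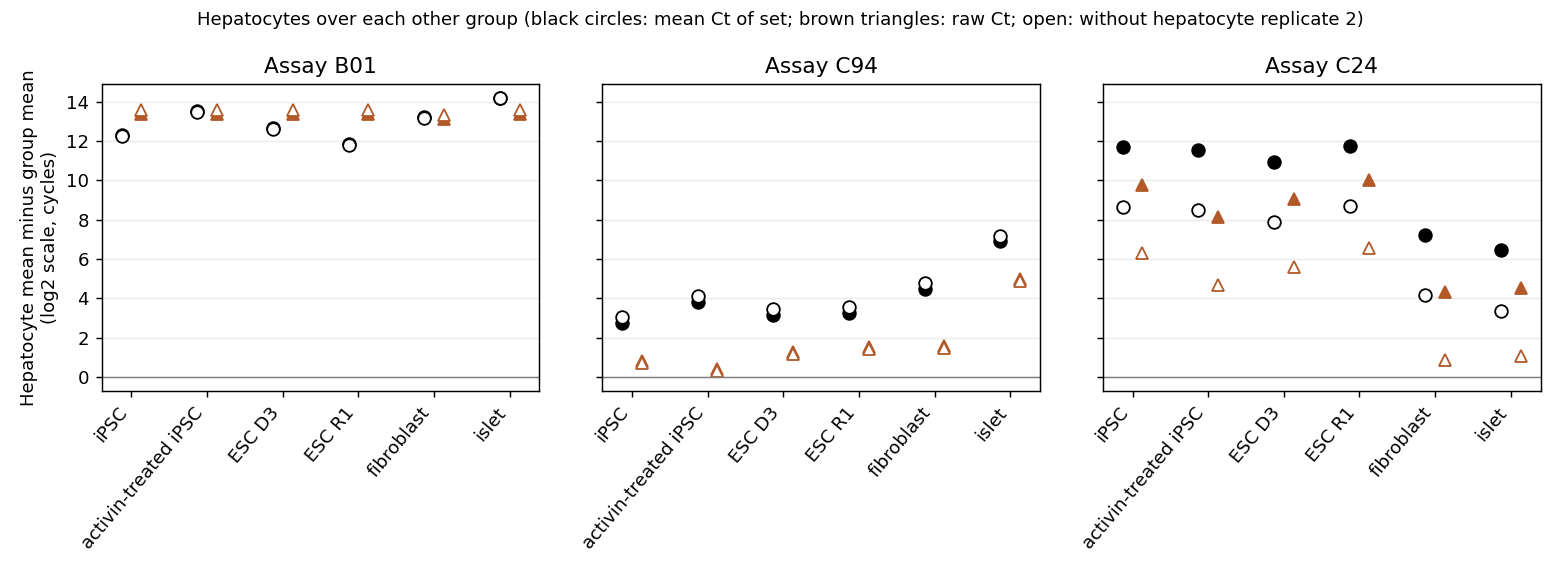
Hepatocyte mean minus the mean of each other group (log2 scale) for B01, C94 and C24, relative to the mean Ct of the set (black circles) and on raw Ct with the limit at 35 (brown triangles), with open symbols where hepatocyte replicate 2 was left out. B01 lies between 11.8 and 14.2 throughout, C94 drops to 0.33 to 1.59 on raw Ct except over islets, and C24 over fibroblasts and islets drops to 0.85 and 1.07 on raw Ct without replicate 2.

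Read against the panel, separation of hepatocytes above islets was common or rare depending on the scale. Of 276 assays, 1.81% lay wholly higher in hepatocytes relative to RNU6, 7.61% on raw Ct and 16.7% relative to the mean Ct. B01 and C94 were among them on each scale and C24 only relative to the mean Ct; the choice of the assays used this contrast, so nothing is read from it. Just inside and outside the choice, the 6 highest differences relative to RNU6 were B01 at 10.98, D15 at 9.03, A64 at 7.36, C94 at 6.10, C24 at 5.64 and A63 at 4.63. D15 and A64 overlapped islets on that scale, and each had a Ct below 15 in hepatocyte replicate 1. Among the 70 assays of plate C, where any reference cancels, C94 had the highest and C24 the 2nd highest difference over islets, and the 1st and 5th without replicate 2. Over iPSC, C24 was the 1st of 70 with and without that sample and C94 the 11th. These ranks also use the hepatocyte values of the choice, among assays kept for detection in hepatocytes or islets, and nothing is read from them.

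The comparison of iPSC with fibroblasts addressed which miRNAs changed on reprogramming, and C24 was called lower in iPSC. Relative to RNU6 it changed by -7.05 on the log2 scale (SE 1.67, limma adjusted p 0.00240), against a median of -1.85 over all 271 assays tested. It was -4.50 relative to the mean Ct (SE 1.16, limma adjusted p 0.00289), where that median was 0.67, and -5.46 on raw Ct (limma adjusted p 0.00782). Relative to the median of all assays these values were -5.20, -5.17 and -5.07. In iPSC the raw Ct was 28.1 ± 1.29 (SD, n = 5) and in fibroblasts 22.7 ± 2.97 (SD, n = 5), or 21.4 ± 0.71 (SD, n = 4) without fibroblast replicate 5. On plate C, C24 had the 4th lowest fold change of 78 assays, at -5.94 relative to their median. A call was frequent here, since 35.4% of all assays were called lower in iPSC with RNU6, 20.3% with the mean Ct and 21.4% on raw Ct. With the replicate number as a block the value relative to RNU6 stayed at -7.05 (limma adjusted p 0.00463).

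C94 had no direction that held between references in the same comparison. The log2 change was -0.81 relative to RNU6 (SE 1.27, limma adjusted p 0.651), 0.78 on raw Ct (limma adjusted p 0.528) and 1.74 relative to the mean Ct (SE 0.46, limma adjusted p 0.00300). Assays called higher in iPSC made up 7.38% on the RNU6 scale, 17% on raw Ct and 33.6% on the mean Ct scale. On plate C it stood 34th of 78, at 0.30 above the median. B01 was not tested in any of the 5 comparisons, because it was below Ct 35 in fewer than 50% of either group's samples.

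ESC served as the pluripotent reference and were compared through the mean Ct, since RNU6 was recovered for 20 samples that include no ESC. C24 was called lower than in fibroblasts, with a log2 fold change of -4.14 (SE 1.11, limma adjusted p 0.00379) and of -5.22 on raw Ct (limma adjusted p 0.00802). It had the 5th lowest value of 81 plate C assays. Of 276 assays 19.2% were called lower in ESC, and 19.9% on raw Ct. C94 was called higher, at 1.28 (SE 0.44, limma adjusted p 0.0199), together with 30.8% of all assays (13.4% on raw Ct). That call ended on raw Ct, at 0.20 (limma adjusted p 0.871), and without fibroblast replicate 2, at 1.00 (limma adjusted p 0.0697), and on plate C it lay at -0.04 relative to the median, 43rd of 81. The ESC and iPSC comparisons share their fibroblast samples. Samples of an ESC line entered the fits singly, unlike treated samples of a clone, with D3 and R1 as groups of equal weight. The SE of ESC comparisons therefore covers spread within a line and not between the lines.

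**Figure D4:**
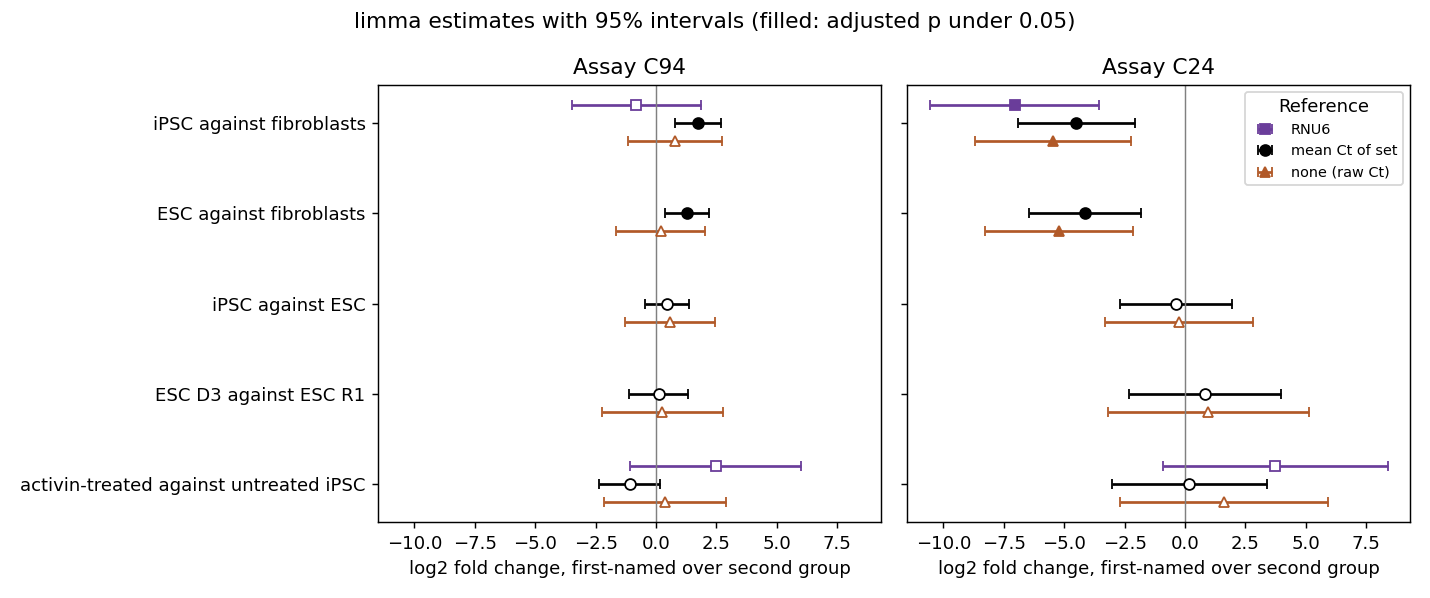
Log2 fold changes of C94 and C24 with 95% intervals from limma in the 5 comparisons that the choice of assays did not use, relative to RNU6 (squares), to the mean Ct of the set (circles) and on raw Ct (triangles); filled symbols have an adjusted p under 0.05. C24 is lower in iPSC and in ESC than in fibroblasts under each reference shown, C94 changes sign between references in iPSC against fibroblasts, and no interval among pluripotent cells leaves out 0.

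Among pluripotent cells neither assay passed the threshold. Between iPSC and ESC the log2 difference was 0.46 for C94 (95% interval -0.45 to 1.38, limma adjusted p 0.996) and -0.36 for C24 (-2.69 to 1.96, limma adjusted p 0.996). Limma called 0 of 273 assays there (0%), with 20 at an unadjusted p under 0.05. Between D3 and R1 it was 0.12 for C94 (-1.12 to 1.35) and 0.83 for C24 (-2.31 to 3.96), each at a limma adjusted p of 1, with 0 of 273 assays (0%) called and 3 at an unadjusted p under 0.05. The intervals of C24 are wide because the fit shares 1 estimate of spread over all groups, which includes hepatocyte replicate 2. Without that sample the SE of C24 between iPSC and ESC was 0.49 in place of 1.11, and no call of C24 changed.

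Activin treatment addressed the first step towards endoderm, and it was not accompanied by a called change of C94 or C24. On the RNU6 scale, treated over untreated iPSC gave a log2 fold change of 2.48 for C94 (SE 1.68, limma adjusted p 0.436) and 3.74 for C24 (SE 2.22, limma adjusted p 0.384). All assays had a median of 1.68 on that scale, and limma called 0 of 284 (0%), with 35 at an unadjusted p under 0.05. The 83 assays of plate C had a median of 3.77. Relative to it C94 lay at -1.29, the 74th highest, and C24 at -0.03, the 43rd, so neither was raised above its plate. Against the mean Ct, C94 stood at -1.08 (SE 0.60, limma adjusted p 0.819) and C24 at 0.18 (SE 1.54, limma adjusted p 0.999), with 0.352% of all assays called. The recovered RNU6 of plate C was 8.22 cycles in replicate 1 of treated clone 3, against -2.55 to 0.38 in the other treated samples. Without that sample the RNU6 values were -0.38 and 1.02. Without replicate 2 of the same treated clone they were 5.34 for C94 and 6.46 for C24 (limma adjusted p 0.097 and 0.0982), with 4 assays called. These fits held no clone term and set the treated averages of clones 2 and 3 against all 5 untreated clones. With clones 2 and 3 only and the clone as a block, the RNU6 values were 3.30 for C94 and 3.77 for C24 (limma adjusted p 0.773 for both). B01 had no Ct in any of the 4 treated samples. Treated cells were also taken off feeders, and treatment and feeder removal cannot be told apart.

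Because C94 and C24 lie on the same plate, the difference of their Ct within a sample needs no reference. The Ct of C24 minus that of C94 was 3.74 to 7.93 cycles in the 11 iPSC and ESC samples, with a median of 5.24. It was 4.94, 4.72, 4.54 and 3.99 in treated cells. Fibroblasts gave -0.95, -2.56, -0.18, -0.47 and 1.98, and islets -3.77, -3.61 and -3.46. Hepatocytes gave 0.42, -9.85 and -0.04, so the 2 samples other than replicate 2 lay among the fibroblasts and above all islets. All 15 pluripotent and treated samples were above all 11 differentiated ones. How many pairs of plate C assays separate the samples in this way was not counted. The difference also reflects both assays. Between islets and fibroblasts the mean raw Ct of C24 was alike, 22.9 and 22.7, while that of C94 was 26.5 and 23.1.

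**Figure D5:**
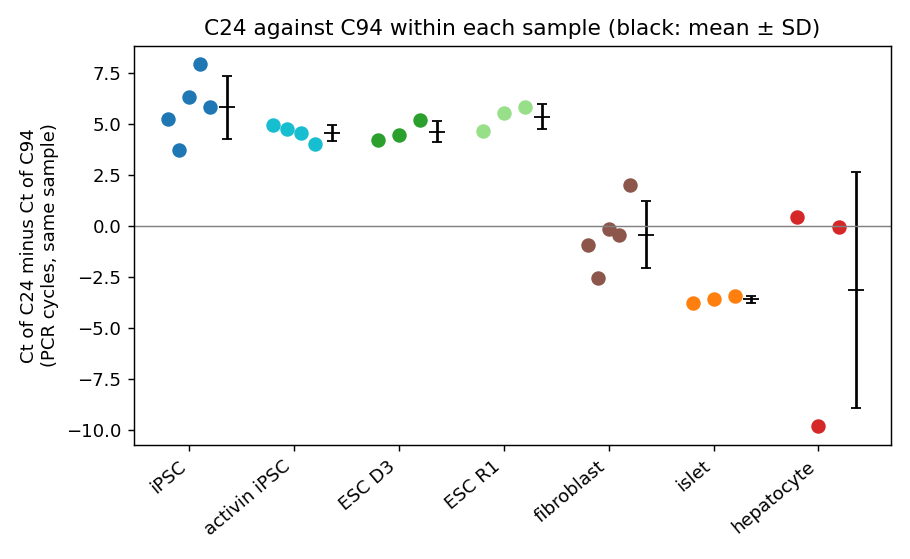
Ct of C24 minus Ct of C94 within each sample (PCR cycles), by group, with black bars for the mean ± SD. Pluripotent and treated samples lie at 3.74 or above, islets near -3.6, and hepatocytes near 0 apart from replicate 2 at -9.85.

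Over the 7 group means of the level relative to the mean Ct, B01 correlated with C94 at r = 0.825 and with C24 at r = 0.790, and C94 with C24 at r = 0.342. Without hepatocytes, over 6 groups, these were 0.851, -0.733 and -0.875. These are descriptions over points that share reference and samples, and the hepatocyte and islet points hold the values that chose the 3 assays. For B01, 5 of the 6 remaining means are at the limit and that of fibroblasts holds 1 sample below it. Among 181 other assays detected in all hepatocyte samples, those with the highest r to B01 over the 7 groups were A06 (r = 0.964), A63 (0.956) and A67 (0.944). Outside hepatocytes the B01 means are at or near the limit and follow the reference, so the order of these 3 is not read as likeness to B01. A06 had a Ct of 24.7 in hepatocytes and 28.7 in islets on average and A63 had 19.6 and 26.7, and all 3 were detected in every islet sample. For C94 they were B67 (r = 0.978), A67 (0.935) and D27 (0.922), with B67 near the limit in all groups but hepatocytes. A67 and A40 each had a Ct below 15 in hepatocyte replicate 1. For C24 they were B10 (r = 0.977), B19 (0.977) and A40 (0.960), and B10 had a level of 4.92 in hepatocytes, 3.02 in islets, 2.42 in fibroblasts and -0.42 in iPSC. B19 had a Ct in only 2 islet samples. The hepatocyte mean of C24 in these correlations was 10.17 with replicate 2 and 7.11 without it, and no r was computed without that sample.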

How the data were processed

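The authors started each cDNA reaction from 5 ng of total RNA and ran 40 PCR cycles on assays for 303 miRNAs, per the labels' protocols; the sources used here name neither the software nor the threshold. The deposited Ct table gives raw cycles for 315 positions on 4 plates, of which 950 of 8190 values (11.6%) have no Ct and 75 are exactly 36. A second deposited table, by the authors, gives log2 fold changes, as differences of RNU6-normalized mean Ct over the samples with a Ct. Solving both tables together by least squares gave the RNU6 Ct subtracted in 20 samples, separately for plates A and B, C, and D (largest residual 4.0e-09 cycles). It is known up to a constant for iPSC, treated and fibroblast samples, and up to another constant for islets and hepatocytes. RNU6 levels can therefore not be compared between these sets of samples. The solving step and the model below were tested on simulated data.

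Log2 levels were the reference Ct minus assay Ct, with 35 as the limit. An assay was fitted where 50% or more of either group's samples were below Ct 35, by limma 3.58.1 (lmFit, eBayes; R 4.3.3), with 1 spread for all groups, treated samples of a clone averaged, and Benjamini-Hochberg adjustment over all assays at 0.05. RNU6 was the reference for iPSC against fibroblasts and for activin, the mean Ct for ESC. Other steps used pandas 2.3.3, numpy 2.4.6 and matplotlib 3.10.9 (Python 3.11.15). The members, stand-in positions and settings were chosen with earlier results of these data known. Besides the 3 assays, the text names the 3 assays most like each over group means and the 6 ranked highest in hepatocytes over islets; A18, C07 and C12 were named after their values were seen. Deviations of same-numbered hepatocyte and islet samples correlated weakly (r 0.190, 0.103 and 0.200). No test here contrasts these groups, but their samples enter the shared spread. No samples held identical values.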

Additional observations from a re-analysis of the deposited data

Results flagged for a closer look

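The raw Ct of C24 in fibroblast replicate 5 was 27.9, against 20.7 to 22.02 in the other 4 fibroblast samples, a gap beyond Dixon's 95% value for 5 samples. That sample also had the fewest assays below Ct 35, 187, and relative to the mean Ct its C24 level, 1.46 against 2.98 to 3.95, did not stand apart by this measure. Of 16 groups of values examined this way 1 stood apart, and chance gives about 1 in 20.

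Relative to the mean Ct, both treated samples of clone 2 lay above their untreated clone for C94 and both of clone 3 below, with responses of 0.54 and -1.42 and a difference, clone 3 minus clone 2, of -1.96 (limma adjusted p 0.995). For C24 the responses were -0.55 and 0.63, a difference of 1.18 (limma adjusted p 0.995). Relative to RNU6 the direction for C94 was the opposite, with responses of 1.00 and 5.59 and a difference of 4.59. C24 had -0.10 and 7.63, a difference of 7.73 (limma adjusted p 0.994 for both). These clone 3 responses rest mostly on treated replicate 1, where the recovered RNU6 of plate C was 8.22 cycles. Its C94 level relative to RNU6 was -13.26, against -24.69 in treated replicate 2 and -24.57 in the untreated clone. For C24 these levels were -17.80, -28.68 and -30.88. On raw Ct the C94 responses had the same sign, 0.65 and 1.44, and those of C24 were -0.44 and 3.48. Each clone has a single untreated sample.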

How the results depend on the processing

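C24 kept its sign and its call against fibroblasts under each setting run, at -7.75 to -4.16 in iPSC and -5.22 to -3.89 in ESC. C94 did not. In iPSC over fibroblasts it was -0.81 relative to RNU6 and turned to 1.74 with the mean Ct per plate set, 1.87 with the mean over all plates, 0.78 on raw Ct, 1.58 with quantile normalization and 1.63 with C94 and C24 left out of the mean; with single samples left out it ran from -1.58 to -0.13 relative to RNU6 and from 1.46 to 2.05 relative to the mean Ct. Under activin its 2.48 turned to -1.08, -0.92, -0.95 and -1.11 with the mean Ct, the mean over all plates, quantiles and the mean without both assays. With single samples left out it ran from -0.38 to 5.34 on the RNU6 scale, and the mean Ct value was also -1.08 without replicate 1 of treated clone 3. In ESC over fibroblasts the call of C94 ended at 1.37 with the mean over all plates (limma adjusted p 0.0669), 0.20 on raw Ct and 1.16 with quantiles (limma adjusted p 0.187), and the value ran from 1.00 to 1.51 with single samples left out. Between D3 and R1 its 0.12 turned to -0.39 with the mean over all plates and -0.31 with quantiles, and ran from -0.05 to 0.23 with single samples left out. The causes were not tested.

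For B01 over islets, 10.98 became 14.20 with the mean Ct (with or without both assays), 14.52 over all plates, 13.37 on raw Ct, 7.98 with the limit at Ct 32 and 14.47 at Ct 40. It has no value where every Ct above 35 was treated as missing, since no islet sample was then left, or where all samples had to be below Ct 35. The calls over all assays under activin went from 0 to at most 5, on raw Ct and with the mean Ct without replicate 1 of treated clone 3. Those between iPSC and ESC went from 0 to at most 2 (quantiles). Those of ESC over fibroblasts went from 138 to 83 when every sample had to be below Ct 35, which leaves 156 assays. With the replicate number as a block, C94 in iPSC over fibroblasts stayed at -0.81 (limma adjusted p 0.628), and no call of C94 or C24 changed; the samples share only a number there, with same-number correlations of -0.04 to 0.293. The settings that leave C94 and C24 out of the mean, leave samples out relative to the mean Ct, or estimate the spread without hepatocyte replicate 2 were chosen after seeing the data. With single samples left out, C94 over islets ran from 4.48 to 7.24 and C24 from 2.77 to 8.34 on the RNU6 scale, and C24 was 3.32 with quantiles. Outside hepatocytes B01 was below Ct 35 in 1 of 23 samples, and the other 22 give only bounds.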

Other observations

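The log2 values of the authors' deposited table are positive where the group named first has less RNA. For islets over hepatocytes the authors' deposited table gives 15.31 for B01, 6.10 for C94 and 5.64 for C24. The value of B01 rests on the 2 islet samples with a Ct, 39.8 and 35.7. For iPSC over fibroblasts the authors' deposited table gives 2.68 for B01, from 2 iPSC clones and 1 fibroblast sample with a Ct, 0.81 for C94 and 7.05 for C24. For untreated over treated iPSC the authors' deposited table gives 2.48 for C94, 3.74 for C24 and no value for B01.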
